A study of Homo sapiens with 9 samples.

Results

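The comparison described here is the stretch of recovery between 1 and 3 h after a heat shock at 44 °C in U937, a human lymphoma cell line with monocyte features that grows in suspension. It rests on 2 of the 9 arrays of the series: the array labelled 44 °C with 3 h of recovery and the array labelled 44 °C with 1 h, chosen by those labels alone. Both cultures were heated at 44 °C for 15 min and returned to 37 °C, one for 1 h and the other for 3 h, with no other agent named. The sample titles state the recovery times as if they were times at 44 °C, and the treatment field of the labels gives the 15 min of heating. The other arrays held unheated control cells kept at 37 °C, cells heated at 42 °C for 15 min and returned to 37 °C for 0, 1, 3 or 6 h, and cells heated at 44 °C and sampled at 0 or 6 h. Each condition had 1 array, so no test, error or p-value is given, and every value describes these arrays. The single control carries no time in its label. The cells are 1 line, and nothing in the labels says whether the time points came from 1 culture or several. The title of the series concerns apoptosis induced by heat.

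Heat unfolds proteins, and cells answer through heat shock factor 1 (HSF1), which binds heat shock elements in promoters and raises the transcripts of molecular chaperones and their helpers. Protein damage also feeds the integrated stress response, in which slowed translation favours the factor ATF4 and its targets, and the unfolded protein response of the endoplasmic reticulum. Transcripts with short lives, such as those of immediate early genes and of MYC, a factor that drives growth, follow changes in transcription and RNA decay quickly. In bulk RNA a change in a transcript cannot be told apart from a change in the share of cells that carry it.

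Signals were brought to a common trimmed mean of 100 per array, and values below the median of all scaled values, a signal of 12.5, were set to that floor. Genes whose signals differed at least 2-fold, a log2 difference of 1, are called higher or lower. Of 19775 genes, 100 (0.506%) were higher at 3 h than at 1 h and 146 (0.738%) were lower. Above 4-fold the counts were 8 genes higher (0.0405%) and 1 lower (0.00506%). Over the same interval at 42 °C, 135 genes were higher (0.683%) and 311 were lower (1.57%). The interval studied here thus held 246 genes past 2-fold (1.24%), fewer than the 373 (1.89%) between unheated cells and cells taken straight from 44 °C. The change at 44 °C exceeded that at 42 °C 2-fold in 335 genes (1.69%) and fell short of it 2-fold in 296 (1.5%).

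Most of these genes were dim. Among the rises the median signal went from 23.6 to 80.0, and 25 lay on the floor at 1 h, so their folds are lower bounds. Among the falls it went from 41.9 to 17.7, and 37 lay on the floor at 3 h. When only the 8475 genes with a mean signal of at least 50 over the pair were kept (the geometric mean, here and below), 47 were higher (0.555%) and 43 lower (0.507%). With a geometric mean signal of at least 500, over 2599 genes, 7 were higher (0.269%) and 3 lower (0.115%). The 7 bright rises were ZFAND2A, BAG3, HSPH1, TXNIP, DEDD2, RGS2 and MED30, and the 3 bright falls were MYC, IER2 and CITED2.

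**Figure D1:**
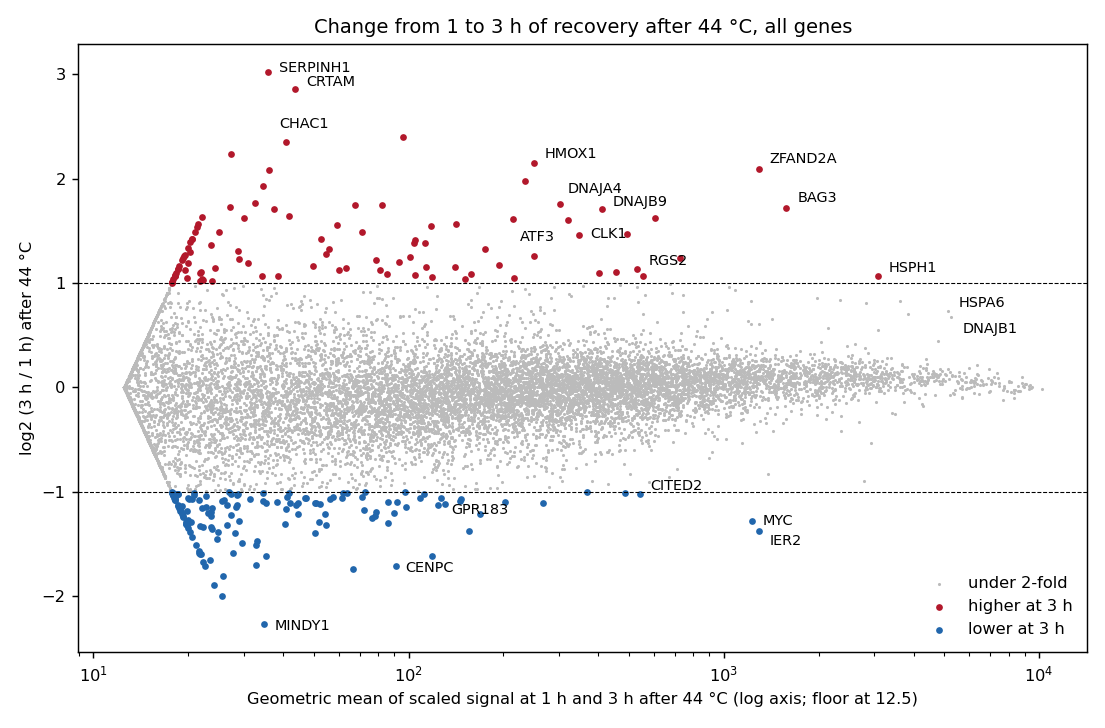
Log2 difference between the 44 °C arrays at 3 h and 1 h (vertical axis) against the mean signal of each gene over both arrays (horizontal axis, log scale), 1 point per gene. Above the levels where the floor limits differences, the spread narrows as signals rise. The 99th percentile of the size of the difference was 1.58 in a bin with a median signal of 39.5. It was 0.74 in the brightest of 10 bins, so MYC, IER2, BAG3 and ZFAND2A lie well outside the cloud at their level.

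The spread gives the scale for these folds. With genes cut into 10 bins by mean signal, the 99th percentile of the size of the log2 difference was 0.74 in the brightest bin. Between unheated cells and cells taken straight from 44 °C it was 0.84. In the bin with a median signal of 39.5 the values were 1.58 and 1.60. At that dim level a 2-fold difference therefore lay inside the range of the pair, and in the brightest bin it lay outside. In bins with a median signal of 13.05 or less the floor held the percentile at 0.68 or below. The direction of the overall split turned with the scaling. With quantile normalisation 136 genes were higher and 79 lower, and with a common median 124 were higher and 94 lower. All 100 rises were past 2-fold under both of these scalings, and 74 of the 146 falls were. Both scalings raised the median of the nonzero differences. It was -0.025 here, 0.005 with quantile normalisation and 0.061 with a common median. Such a shift favours rises and can cost falls near the line their call, so the kept rises are no separate check.

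The 44 °C arrays were of like quality. Before scaling their trimmed means were 211 at 1 h and 205 at 3 h, the range over all arrays being 101 to 211. Signals above the floor made up 50.4% and 48.3% of probe sets. The ratio of 3′ to 5′ signal for ACTB was 1.32 and 1.31, and for GAPDH 0.985 and 0.939. Of 17 monocyte markers 13 were above the floor on 1 of the arrays or both, with a summed signal of 11140 at 1 h and 11640 at 3 h. CD14, FCGR1A, MPO and CD163 were on the floor on both. Of 12 T cell markers 6 were above the floor, with sums of 372 and 388, and CD3E, CD3G, CD2, CD8A, LCK and CD28 were on the floor. B cell markers (6 of 10 above the floor) summed to 241 and 207, with MS4A1 and CD79B on the floor. Epithelial and fibroblast markers (4 of 12) summed to 88.6 and 159, with EPCAM, CDH1, COL1A2 and COL3A1 on the floor. Erythroid markers (5 of 6) summed to 242 and 186.

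The 4 genes given as markers of this interval all moved past 2-fold. BAG3, a cochaperone that links HSP70 to autophagy, had a signal of 176 in the control, 156 at 0 h, 869 at 1 h, 2869 at 3 h and 3602 at 6 h after 44 °C. Its 1 to 3 h rise was 3.30-fold. ZFAND2A, an arsenite- and heat-inducible protein tied to the proteasome, followed the same order with 185, 189, 625, 2670 and 4119, a 4.27-fold rise. Both genes stood near the control level right after the shock and climbed at each later time. ATF3, a stress-induced repressor of the ATF family, rose 3.06-fold, from 123 to 376, and was down to 120 at 6 h. Its other probe sets above the floor gave log2 differences from -0.95 to 1.19, so its rise depends on the probe set. MYC fell 2.43-fold, from 1914 to 787.

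Among the chaperones measured, a small number of inducible members led rather than whole families. SERPINH1 (HSP47), the collagen chaperone of the endoplasmic reticulum, had the largest rise of all genes. Its signal was below the floor in the control, at 0 h and at 1 h after 44 °C (0.58, 0.89 and 6.65), then 102 at 3 h and 371 at 6 h. That is at least an 8.14-fold rise from 1 to 3 h. After 42 °C it was already 176 at 0 h, 271 at 1 h, 475 at 3 h and 506 at 6 h. DNAJA4, an HSP40 cochaperone, rose 3.38-fold from 165 to 557, and its 3 other probe sets gave log2 differences of 1.04 to 3.05. HSPA1L, an HSP70 gene beside HSPA1A and HSPA1B, rose 2.92-fold from 68.7 to 201. CRYAB, a small heat shock protein, rose 2.94-fold from 34.7 to 102, and HSPH1, the HSP110 exchange factor of HSP70, rose 2.10-fold from 2127 to 4471.

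Counted by family, 2 of 11 measured HSP70 and HSP110 genes were higher and none lower, with a median log2 difference of 0.39. These 11 did not include HSPA1A, HSPA1B or HSPA8, so the count leaves those HSP70 genes open. HSPA5 was counted with the endoplasmic reticulum genes. Over all genes the median was 0.00 and the share called higher was the 0.506% given above. Genes on the floor on both arrays have a difference of 0, and 12142 of the 19775 were above it. The median also varied with signal: -0.13 in the bin with a median signal of 39.5, 0.01 in that of 418 and 0.08 in the brightest. List medians below are to be read against those values. A list of 12 genes held small heat shock proteins, mitochondrial chaperonins and SERPINH1, which is in neither class. Of these 12, CRYAB and SERPINH1 were higher, but only 5 were above the floor. Of 6 BAG family genes BAG3 alone was higher. Of 34 genes in the HSP40 list DNAJA4 alone was higher, with a median of 0.07. That list left out DNAJB9 and DNAJB11, which were counted with the endoplasmic reticulum genes, and DNAJB9 rose 3.26-fold. No gene passed 2-fold among 18 HSP90 genes and cochaperones or 12 subunits of the TRiC chaperonin and prefoldin. Their medians were 0.20 and 0.18, and 17 of the 18 and all 12 were above 0. Over the same interval after 42 °C those medians were 0.24 and 0.28. Among 30 proteasome subunits none passed and the median was 0.12, with 27 above 0. HSF1 itself went from 179 to 152, a log2 difference of -0.24.

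Several other chaperones with strong signals stayed inside 2-fold on the probe set used and differed in course. HSPA6, an HSP70 that is nearly silent without stress, had a signal of 138 in the control, 131 at 0 h after 44 °C, 3988 at 1 h, 6645 at 3 h and 6587 at 6 h. Its log2 difference from 1 to 3 h was 0.74, and its other probe set gave 1.10. DNAJB1, the HSP40 partner of HSP70, went from 4168 to 6661 (0.68), and 1.25 on its other probe set. HSPB1 (HSP27) stood at 2215 in the control, 3019 at 1 h, 4904 at 3 h (0.70) and 6867 at 6 h. HSP90AA1 went from 6523 to 7352 (0.17). HSPA6 and DNAJB1 were far above the control by 1 h, and HSPB1 gained more after 1 h than before it.

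The promoters of SERPINH1 and HSPA6 are printed because they hold a heat shock element and belong to genes with different courses: HSPA6 was high by 1 h and SERPINH1 only by 3 h. The 250 bases before each start come from RefSeq on GRCh38.p14, plus strand, 5′ to 3′, at chr11:75562003-75562252 for SERPINH1 and chr1:161524290-161524539 for HSPA6. Capitals mark the element, 3 units in which TTC and GAA alternate with any 2 bases between them, begun with either, which begins 76 bases before the start of SERPINH1 and 74 before that of HSPA6.
SERPINH1: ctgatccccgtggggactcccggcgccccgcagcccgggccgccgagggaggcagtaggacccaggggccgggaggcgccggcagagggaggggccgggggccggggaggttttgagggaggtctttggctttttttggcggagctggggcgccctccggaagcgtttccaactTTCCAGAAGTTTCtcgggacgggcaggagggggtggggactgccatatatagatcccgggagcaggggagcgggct
HSPA6: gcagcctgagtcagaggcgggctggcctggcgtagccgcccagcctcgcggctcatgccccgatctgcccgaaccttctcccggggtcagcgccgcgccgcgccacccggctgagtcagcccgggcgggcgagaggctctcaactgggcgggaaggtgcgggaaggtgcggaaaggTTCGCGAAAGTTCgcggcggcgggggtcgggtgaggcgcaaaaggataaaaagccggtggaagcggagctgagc
Both strands were searched in 300-base promoters that run to 50 bases past the start, and a match is a description of letters, not a binding site. The element was in 172 of 35116 promoters (0.49%) and in 89 of 15384 measured genes with a promoter in the table (0.579%). Among such rises it was in 2 of 65 (3.08%), SERPINH1 and TDRG1, and among the falls in 0 of 102. With a mean signal of at least 50 it was in 0 of 30 rises and 0 of 34 falls. The other rises at that level, of 47, had no promoter in the table. Only exact matches within these promoters were counted, so an inexact or more distant element would be missed.

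**Figure D2:**
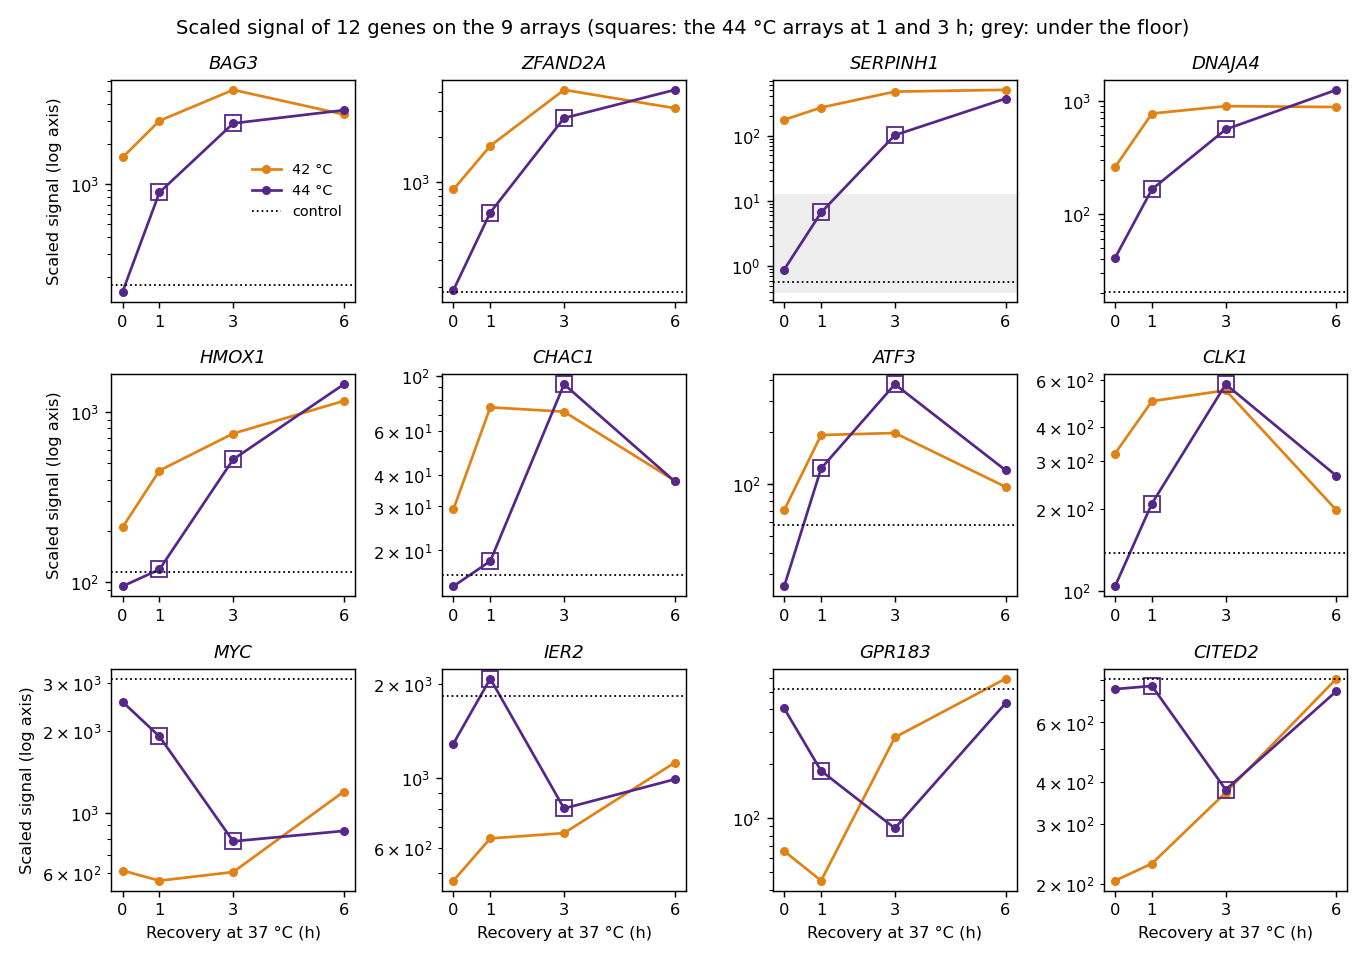
Scaled signal (vertical axes, log scale) of 12 genes across recovery time in h (horizontal axes) after 42 °C and 44 °C, with the control level as a line and 1 array per point. After 44 °C BAG3, ZFAND2A, DNAJA4 and HMOX1 climb from 1 to 3 h and on to 6 h, CHAC1, ATF3 and CLK1 peak at 3 h, and MYC and IER2 drop between 1 and 3 h toward the lower levels of the 42 °C arrays.

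Targets of the integrated stress response rose in few members. CHAC1, an enzyme that degrades glutathione and a target of ATF4, had signals of 16.0 in the control, 14.4 at 0 h, 18.1 at 1 h, 92.5 at 3 h and 37.8 at 6 h after 44 °C. The 3 h array stood apart from all others of the 44 °C course, with a 5.11-fold rise from 1 h. After 42 °C CHAC1 was 74.8 at 1 h and 71.9 at 3 h, so no change past 2-fold was seen there. With ATF3, 2 of 28 measured genes of this response were higher and none lower, with a median log2 difference of 0.12. DDIT4, an inhibitor of mTOR signalling, went from 380 to 742 (0.96) and SESN2, another brake on mTOR, from 176 to 329 (0.90). DDIT3 (CHOP), a proapoptotic factor of the same response, had a log2 difference of 0.22, and PPP1R15A (GADD34), which restores translation, one of 0.46.

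The CHAC1 promoter is shown for the composite CEBP-ATF response element bound by ATF4 and its partners, in capitals, written TGATGNAAN or its reverse complement NTTNCATCA. The stretch is chr15:40953221-40953470, plus strand, RefSeq on GRCh38.p14, and the element begins 210 bases before the start.
CHAC1: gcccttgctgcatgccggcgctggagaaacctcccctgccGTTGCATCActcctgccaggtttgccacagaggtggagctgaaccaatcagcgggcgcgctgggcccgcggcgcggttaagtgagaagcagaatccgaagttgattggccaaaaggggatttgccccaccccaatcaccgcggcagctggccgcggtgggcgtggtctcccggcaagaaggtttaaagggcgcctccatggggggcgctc
These letters were in 1268 of the 35116 promoters (3.61%), in 555 of the 15384 measured genes (3.61%), in 8 of 65 promoters of genes that rose (12.3%) and in 2 of 102 of genes that fell (1.96%). The 8 were ATF3, CHAC1, DNAJA4, HPX, IL7R, MBNL2, SLC11A1 and ZNF436. With a mean signal of at least 50 the counts were 4 of 30 rises (13.3%) and 1 of 34 falls (2.94%).

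In the unfolded protein response of the endoplasmic reticulum 1 of 22 genes was higher. DNAJB9 (ERdj4), a cochaperone of BiP, had signals of 178 in the control, 142 at 0 h, 228 at 1 h, 743 at 3 h and 715 at 6 h after 44 °C. It rose 3.26-fold from 1 to 3 h, and its 2 other probe sets gave 1.27 and 1.80 on the log2 scale. The 42 °C arrays showed the same interval rise, from 271 to 831. HERPUD1, which helps degrade proteins of the endoplasmic reticulum, had a log2 difference of 0.72. HMOX1, the haem-degrading enzyme induced by oxidative stress, was the sole gene past 2-fold among 22 NRF2 targets. It had signals of 115 in the control, 94.7 at 0 h, 119 at 1 h, 526 at 3 h and 1449 at 6 h, a 4.43-fold rise from 1 to 3 h that continued. Of 8 metallothioneins MT3 alone passed, and fell from 29.9 to 14.6, with a loss of the call under both other scalings.

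**Figure D3:**
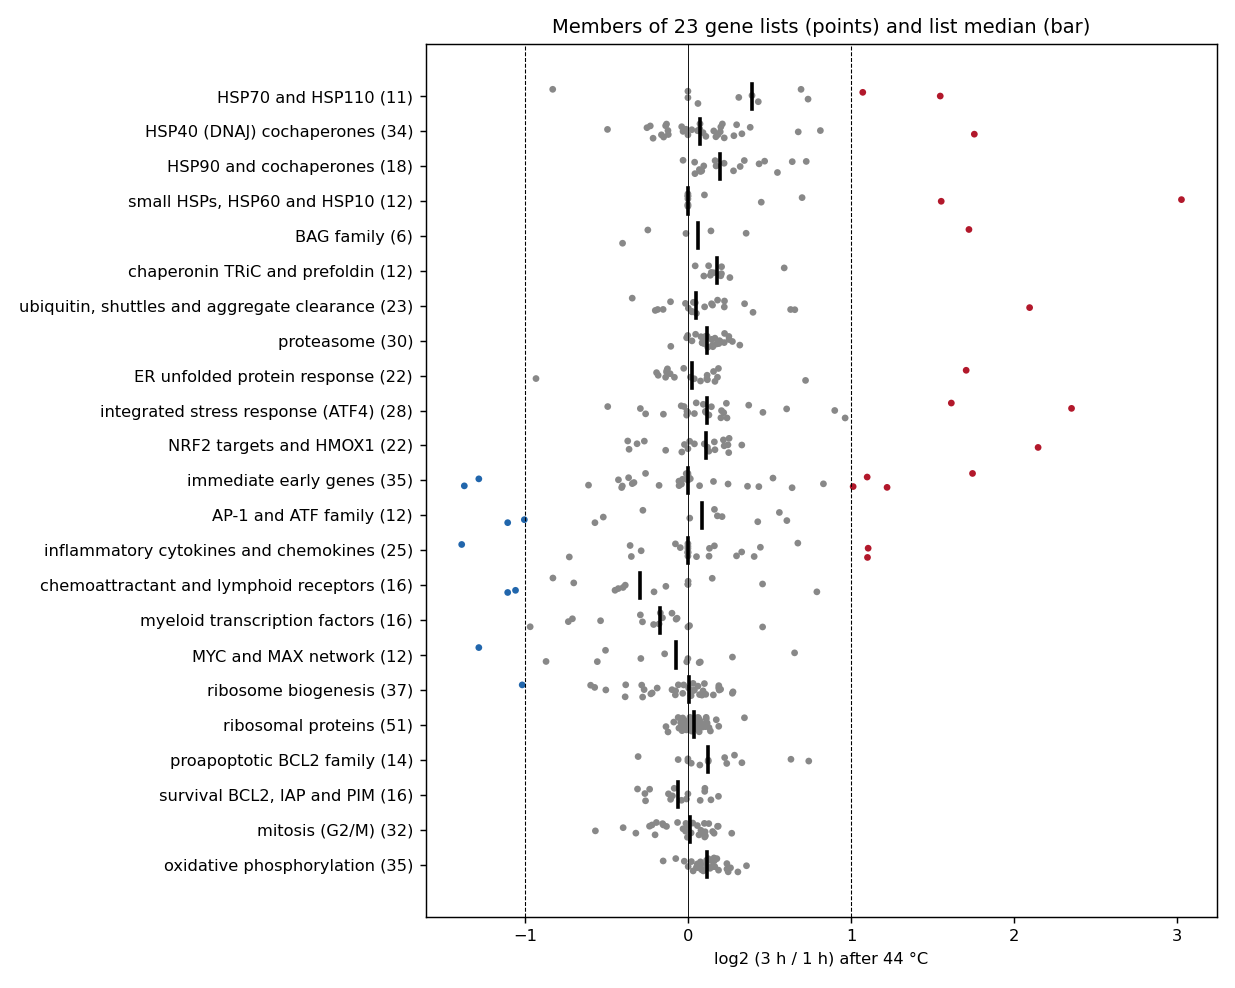
Log2 difference from 1 to 3 h after 44 °C (horizontal axis) for the members of 23 gene lists (rows), 1 point per measured gene and a bar at the list median, with lines at 2-fold. Chaperone lists carry a few genes far to the right while their medians stay between 0.00 and 0.39, and the chemoattractant receptor list has the lowest median, -0.30.

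Immediate early genes moved both ways. Of 35 measured, 4 were higher and 2 lower, with a median of 0.00. IER2 fell 2.59-fold, from 2074 to 802, and stood at 992 at 6 h. The control held 1822 and the 0 h array after 44 °C 1289. IER2 was thus lower at 0 h, near its control level at 1 h and below it by 3 h. After 42 °C it was already at 472 at 0 h, and 644 and 669 at 1 and 3 h. IER3, an early gene that modulates survival, rose 2.14-fold from 275 to 590 and was back at 273 at 6 h. KLF2, a zinc finger factor of blood and endothelial cells, went from 51.5 to 120, a 2.33-fold rise that its other probe set did not share (-0.21). NR4A1, an orphan nuclear receptor, went from 37.0 to 124, and its other probe sets gave -0.59 and -0.24, so its direction is unsettled. ID3, an inhibitor of helix-loop-helix factors, was at least 2.02-fold higher from a signal on the floor. FOS (0.56), JUN (0.43) and EGR1 (-0.36) did not pass.

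Of 12 genes of the AP-1 and ATF families, ATF3 counted elsewhere, BATF3 and JUNB were lower. BATF3, a partner of JUN, fell 2.15-fold from 390 to 182, from a level above the control of 290. JUNB went from 138 to 69.0, just at the 2-fold line, and lost the call with quantile normalisation (-0.88) and with a common median (-0.91). None of 18 dual specificity phosphatases and ERK feedback genes passed, the nearest being DUSP5, from 207 to 404 (0.97). None of 17 genes of the NF-kB system passed and their median was -0.06. Among 25 inflammatory cytokines and chemokines PTGS2, the inducible cyclooxygenase, and OSM, a cytokine of the IL-6 family, were higher and CXCL2 lower, all at signals of at most 32.8.

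MYC, already lower at 0 h after 42 °C, came down later after 44 °C. Its signal was 3123 in the control, 2567 at 0 h, 1914 at 1 h, 787 at 3 h and 859 at 6 h after 44 °C. After 42 °C it was 614, 564, 607 and 1200 at the same times. The 44 °C culture thus reached at 3 h a level closer to those of the 42 °C arrays up to 3 h than to its own at 1 h. MYC was the sole gene past 2-fold of 12 in the MYC and MAX network. Of 37 ribosome biogenesis genes POLR1C, a subunit shared by RNA polymerases I and III, was lower at 2.02-fold, from 692 to 342, and its other probe set gave -1.08. With a common median its own difference was -0.93 and no longer past 2-fold. NOP2, a nucleolar RNA methyltransferase, went from 376 to 248 (-0.60), and the list median was 0.00. Ribosomal proteins (51 genes, median 0.03) and tRNA synthetases (17 genes, median 0.10) had no member past 2-fold.

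The ribosomal RNA precursor behaved unlike POLR1C. The probe set assigned to RNA45SN5, the 45S pre-ribosomal RNA, rose 2.77-fold from 296 to 820, and another gave 1.73 on the log2 scale. Its signal was 85.3 in the control and 41.8 at 0 h after 44 °C, and reached 905 at 1 h after 42 °C. Copies of this repeat are near-identical, so the copy is uncertain, and the array primes from poly(A) tails that the mature RNA lacks. CLK1, a kinase that phosphorylates SR splicing factors, rose 2.75-fold from 209 to 576 and was 265 at 6 h. It was the sole gene past 2-fold of 24 CLK kinases and SR proteins. Its relative CLK2 went from 258 to 144 (-0.84).

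Among chemoattractant and lymphoid receptors GPR183 and GPR65 were lower. GPR183, an oxysterol receptor that guides lymphoid and myeloid cells, had signals of 522 in the control, 405 at 0 h, 183 at 1 h, 87.8 at 3 h and 433 at 6 h after 44 °C. After 42 °C the order was 65.5, 45.0, 280 and 592, so the lowest array was the 1 h array at 42 °C and the 3 h array at 44 °C. GPR65, a proton-sensing receptor, went from 74.3 to 34.6, a 2.15-fold fall. Both calls were lost with quantile normalisation, at -0.96 for GPR183 and -0.93 for GPR65. Of 16 chemoattractant and lymphoid receptors these 2 were lower and none higher, and the median was -0.30. CXCR4, the receptor of CXCL12, went from 1834 to 1034 (-0.83). RGS2, which shortens G protein signals, rose 2.20-fold from 359 to 789, against 57.3 in the control. RGS1, another of the family, went from 196 to 116 (-0.75).

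CITED2, a coregulator that competes for CBP and p300, was 806 in the control, 753 at 0 h, 769 at 1 h, 380 at 3 h and 742 at 6 h. It fell 2.02-fold in this interval alone of the 44 °C course and stood near the control at each other time. Its other probe set gave -0.99, and with a common median the difference was -0.93, so it lies at the 2-fold line. After 42 °C it was lowest at 0 h, at 205. None of 16 myeloid transcription factors passed 2-fold, and 13 of the 15 above the floor were below 0 with a list median of -0.17. Among all genes the median was -0.12 in the bin with a median signal of 96.5 and -0.05 in that of 205. CEBPA, a factor of granulocyte and monocyte development, went from 1374 to 948 (-0.54), and GFI1, a repressor in the same lineages, from 472 to 284 (-0.73).

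The other large falls named here started from signals of at most 207, and several of them were dim. CENPC, a centromere protein, fell 3.28-fold from 165 to 50.4 and was 114 at 6 h. NRROS, a regulator of reactive oxygen species in phagocytes, fell 3.33-fold from 122 to 36.6 and was 41.6 at 6 h. ANKRD13D, a ubiquitin-binding membrane protein, fell 3.06-fold from 207 to 67.7, with its other probe sets at -1.17 and -0.62. MINDY1, a deubiquitinase, had the largest fall, 4.83-fold from 76.4 to 15.8, and its other probe set gave -0.31. NAPEPLD, an enzyme of endocannabinoid synthesis, fell 3.99-fold, and its other probe sets lay between -0.64 and 0.00. SCAF1, LIMS1, TRMT2A and EXOC3L1 ended on the floor.

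Among the large rises outside the stress lists, KLHL25, an adaptor of cullin 3 ubiquitin ligases, had signals of 27.3 in the control, 38.3 at 0 h, 41.9 at 1 h, 220 at 3 h and 284 at 6 h, a 5.26-fold rise. CRTAM, a surface protein best known from activated T and NK cells, rose 7.24-fold from 16.3 to 118. IL7R, the sole member of the T cell marker list past 2-fold, went from 14.9 to 41.9 and reached 164 at 6 h. Of the 6 members of that list above the floor, CD4, which monocytes also carry, went from 300.0 to 276, CD5 from 9.57 to 18.5, TRBC1 from 5.78 to 15.1 and CD3D from 13.5 to 13.2, and ZAP70 differed by -0.02. The other 6 were on the floor, and the part of T cell transcripts in the rise of CRTAM was not tested. FAM13A was at least 4.73-fold higher, from the floor to 59.3. COL1A1 went from 35.2 to 85.3, and its other probe sets gave -0.25 and 0.00, so the rise in the epithelial and fibroblast sum rests partly on 1 probe set. EPOR, the erythropoietin receptor, fell 2.22-fold from 146 to 65.9, with 3 other probe sets between -0.82 and -0.27.

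Genes of cell death and cell division mostly stayed inside 2-fold. None of 14 proapoptotic BCL2 family genes passed, with a median of 0.12. PMAIP1 (NOXA), a BH3-only protein, was nearest, from 794 to 1326 (0.74), and 1.08 on its other probe set. None of 16 survival genes passed, among them MCL1 (-0.04), BCL2 (-0.31) and BCL2A1 (0.19). Of 22 death receptors and caspases TNFRSF10D, a decoy receptor for TRAIL, rose 2.39-fold from 162 to 387, and its other probe set gave 1.40. None of 22 p53 targets passed. GADD45A, a growth arrest gene, went from 56.6 to 111 (0.97, and past 2-fold at 1.08 with quantile normalisation), and CDKN1A (p21) from 147 to 261 (0.83). No gene passed among 29 replication genes (median 0.05), 32 mitotic genes (0.01), 35 subunits of oxidative phosphorylation (0.12) or 15 housekeeping genes (-0.01). ALAS1, counted among the housekeeping genes, went from 743 to 1451 (0.97). Interferon response genes (26, median 0.00) had no member past 2-fold.

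The arrays of other conditions show where these genes stood outside the interval. Of the 100 rises, 52 were also at least 2-fold above the control at 1 h after 42 °C (52% against 1.9% of all genes) and 1 was below it. At 6 h after 44 °C 58 were above the control and 4 below (background 2.51% and 2.64%). Of the 47 rises with a mean signal of at least 50 the counts were 34 of 47 above the control at 1 h after 42 °C (72.3%, background 1.70% of 8475 genes) and 37 of 47 at 6 h after 44 °C (78.7%, background 3.28%). On the 44 °C array at 0 h 3 of the 100 were above the control (background 0.855%) and 7 below (1.03%). None of those contrasts used an array on which the genes were chosen. They share the control, so they are not independent of each other.

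The brighter falls had the mirror pattern at 42 °C. Of the 43 with a mean signal of at least 50, 15 were at least 2-fold below the control at 1 h after 42 °C and 1 above (34.9% lower, background 2.04%). At 3 h after 42 °C 21 of 43 were below (48.8%, background 4.47% of these brighter genes and 3.08% of all), and at 6 h after 44 °C 10 of 43 (23.3%, background 3.99%). Over all 146 falls 26 were lower (17.8%, background 1.53%) and 12 higher (8.22%, background 1.9%) at 1 h after 42 °C, so both shares lay above those of all genes. All but 1 of those 12 had a mean signal under 50.

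**Figure D4:**
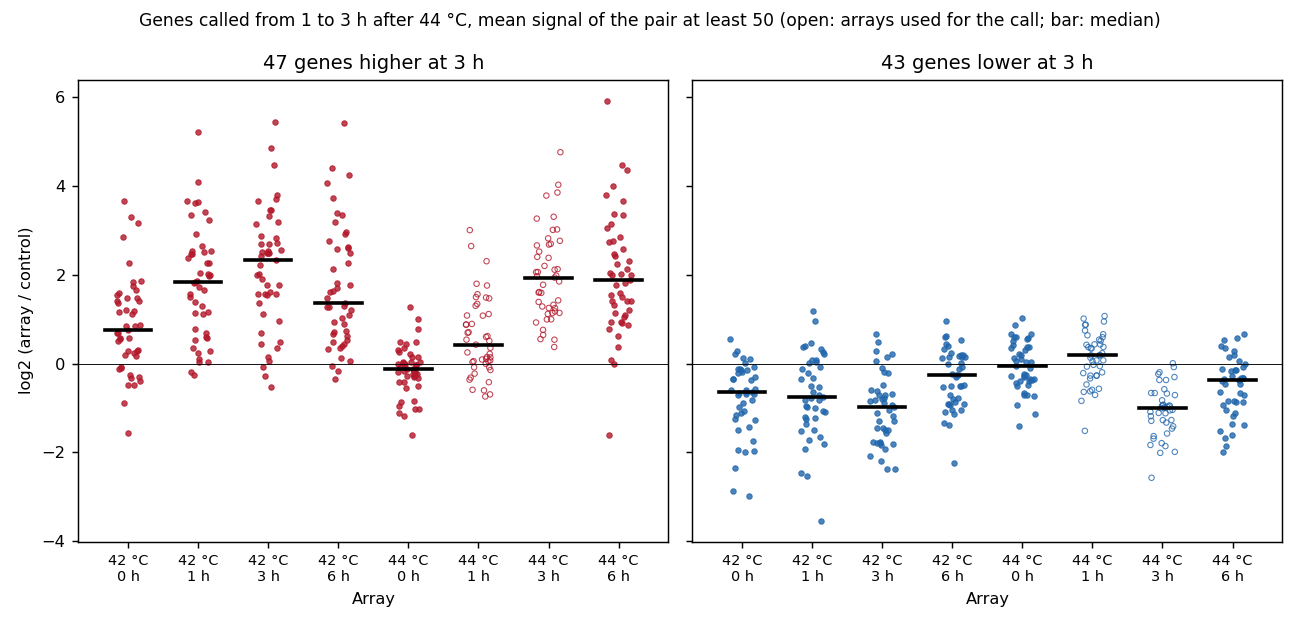
Log2 difference from the control (vertical axis) on each heated array (horizontal axis) for the 47 genes higher and the 43 genes lower at 3 h than at 1 h after 44 °C with a mean signal of at least 50, 1 point per gene, open where the array was used to choose the genes. The rises had a median of 1.85 at 1 h after 42 °C, an array not used to choose them, and the falls a median of -0.76 there.

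Over the same 1 to 3 h interval at 42 °C some of the same genes passed. Of the 100 rises 13 also rose at 42 °C (13% of the 44 °C list and 9.63% of the 42 °C list, where 0.683% of all genes rose), ZFAND2A, DNAJB9, CRTAM, FAM13A, IL7R and MBNL2 among them, and 4 fell. Of the 146 falls 24 also fell (16.4% and 7.72%, where 1.57% of all genes fell) and 3 rose. BAG3, HMOX1 and KLHL25 had log2 differences of 0.77, 0.72 and 0.75 at 42 °C, against 1.72, 2.15 and 2.40 at 44 °C. CHAC1, ATF3, CLK1, RGS2, IER3 and DNAJA4 lay between -0.12 and 0.22 at 42 °C, where they were already high at 1 h. MYC and IER2 lay at 0.11 and 0.06, where they were already low. Across 9913 genes above the floor on all arrays, the 44 °C change from 1 to 3 h correlated with the 42 °C change of the same interval at r = 0.35, and with what set 42 °C at 1 h apart from unheated cells at r = 0.34. The pairs share no array, and genes are not independent replicates. Both 1 to 3 h changes also drifted with signal. From the bin with a median signal of 39.5 to the brightest, their medians went from -0.13 to 0.08 at 44 °C. At 42 °C they went from -0.14 to 0.11. The part of this drift in r was not tested.

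**Figure D5:**
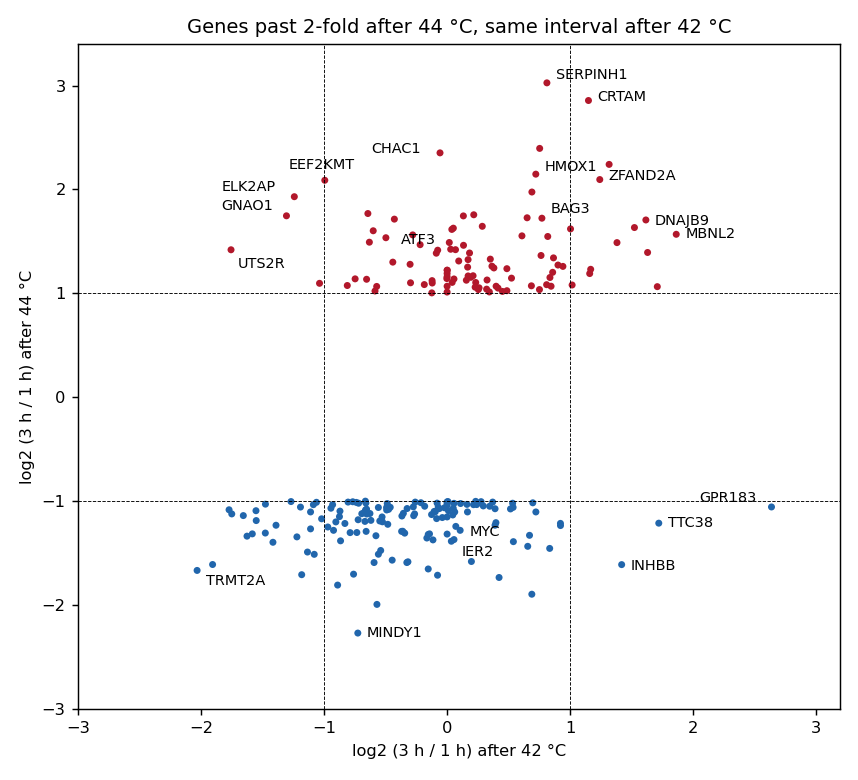
Log2 difference from 1 to 3 h after 44 °C (vertical axis) against the same difference after 42 °C (horizontal axis) for the 246 genes past 2-fold at 44 °C, with lines at 2-fold. ZFAND2A and DNAJB9 lie past 2-fold on both axes, CHAC1, ATF3, MYC and IER2 lie near 0 on the horizontal axis, and GPR183 falls at 44 °C while it rises at 42 °C.

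As whole arrays, the 44 °C array at 3 h was nearest to that at 1 h, with a root mean square log2 difference of 0.33 over the same 9913 genes. The next nearest was the 42 °C array at 1 h (0.38), then 42 °C at 3 h (0.41) and 44 °C at 6 h (0.43). The 44 °C array at 1 h was nearest to its own 3 h array (0.33) and to the control (0.34), with the 42 °C array at 1 h at 0.40. The control lay at 0.45 from the 3 h array.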

How the data were processed

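Total RNA from each culture was made into biotin-labelled cRNA by one-cycle 3′ amplification and hybridised to Affymetrix U133 Plus 2.0 arrays, per the labels' protocols. The deposited values are linear intensity values, 1 per probe set, and are MAS5 signals per the submitters' processing notes. The scaling target is not given in the sources used here. Each array was scaled to a trimmed mean of 100 (2% off each end) over 54613 probe sets that are not controls, floored at 12.5 and put on a log2 scale. The floor shrinks folds of dim genes. Of 54675 probe sets 41097 had 1 gene symbol, 1801 several and 11777 none listed, and 41043 matched a RefSeq gene. Each of 19775 genes was read from its brightest probe set, by the mean log2 value over 9 arrays.

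With 1 array per group there is no test, and the number of arrays limits all precision. The rule of size was 2-fold. Named genes were the 15 largest rises and falls without an opposing probe set (0.5 log2), up to 5 past 2-fold of each of 46 gene lists each way, 44 chosen stress and growth genes, and the 6 with the largest difference from 42 °C each way. TXNIP, DEDD2, MED30, other list members inside 2-fold and the promoter examples were picked after their values were seen. Members and lists were chosen with earlier results of these data known. Calculations used Python 3.11.15, numpy 2.4.6 and pandas 2.3.3, and the fold calculation was tested on simulated data. Alternatives were quantile normalisation, a common median, floors at the 25th and 75th percentiles, genes above the floor on both arrays, the median over probe sets, and a 4-fold rule. Comparisons of 42 °C arrays with the control, array distances, and a floor taken from the pair alone were added after the data were seen.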

Additional observations from a re-analysis of the deposited data

Results flagged for a closer look

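A few genes went past 2-fold in opposite directions over the same 1 to 3 h interval at 44 °C and 42 °C. The difference between temperatures was not tested, since each time and temperature has 1 array. GPR183 fell by 1.06 on the log2 scale at 44 °C and rose by 2.64 at 42 °C, with signals of 183 and 87.8 at 44 °C and 45.0 and 280 at 42 °C. INHBB, an activin subunit, fell by 1.61 and rose by 1.42. TTC38 fell by 1.21 and rose by 1.72, with a signal on the floor at 1 h after 42 °C. ELK2AP, a pseudogene, rose by 1.93 at 44 °C, from 17.7 to 67.5, and had a log2 difference of -1.24 at 42 °C. GNAO1, a G protein subunit, rose by 1.75, from 44.9 to 151, with -1.31 at 42 °C. UTS2R, the urotensin receptor, rose by 1.42 from the floor, with -1.76 at 42 °C. Apart from GPR183, these signals were at most 151 on the 4 arrays.

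Probe sets with no single gene symbol were left out of all gene counts and also moved between the arrays. Of 13522 such probe sets, 291 were lower at 3 h than at 1 h (2.15%) and 36 were higher (0.266%). Above 4-fold, 7 were lower and 2 higher, and the 7 had signals of at most 29.5 at 3 h. These counts are given for the main scaling only, and the split of named genes turned with the scaling. No gene name was given to any of them here.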

How the results depend on the processing

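No paired analysis was possible because every group has 1 array, and for the same reason no replicate could be left out. From 1 to 3 h after 44 °C, the 100 rises became 964 with a floor at the 25th percentile, 32 with a floor at the 75th and 8 at 4-fold. The 146 falls became 79 with quantile normalisation, 94 with a common median, 1214 and 17 with the lower and higher floor, 71 with the median over probe sets and 1 at 4-fold. At 42 °C the 135 rises became 229 with quantile normalisation, 1574 and 24 with the lower and higher floor, 85 among genes above the floor on both arrays, 77 with the median over probe sets and 3 at 4-fold. The 311 falls there became 187, 1728, 28, 196, 167 and 7 under the same settings. Genes whose 44 °C change exceeded the 42 °C change 2-fold, 335 in number, became 1993 and 33 with the lower and higher floor, 192 above the floor on both, 188 over probe sets and 16 at 4-fold. The 296 that went the other way became 2232, 40, 181, 151 and 22. By construction the lower floor lets dimmer signals enter the folds and the higher one takes them out. The cause of the other shifts was not tested.

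Of the 61 named genes past 2-fold, 57 stayed past it with quantile normalisation, 56 with a common median, 22 with the higher floor and 42 with the median over probe sets. NR4A1 reversed to -0.24 with that median. CITED2, GPR183, JUNB, MT3 and POLR1C lost the call with the common median, and GPR183, GPR65, JUNB and MT3 with quantile normalisation. After both scalings and the higher floor, 32 rises and 10 falls remained. The rises included BAG3, ZFAND2A, HMOX1, DNAJA4, CLK1, HSPH1 and, on the probe set used, ATF3. The falls included MYC, IER2, CENPC and BATF3. Large rises that lost the call with the higher floor were SERPINH1 (0.37), CRTAM (0.57), CHAC1 (0.23), CRYAB (0.37) and FAM13A (0.00), among others. List medians moved by at most 0.16 with quantile normalisation, 0.09 with the common median, 0.15 with the median over probe sets, 0.57 and 0.30 with the lower and higher floor, and 1.28 among genes above the floor on both arrays. None past 0.1 in size changed sign under any setting. The median over all genes was 0.00 under every setting but the one for genes above the floor on both arrays (-0.02).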

Other observations

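Several bright genes outside the lists moved past 2-fold and are given here as values; they were picked after the values were seen. TXNIP, the inhibitor of thioredoxin and of glucose uptake, had signals of 312 in the control, 174 at 0 h, 345 at 1 h, 1066 at 3 h and 1064 at 6 h after 44 °C, and 1120 at 1 h after 42 °C. DEDD2, a death effector domain protein of the nucleus, rose 2.37-fold from 473 to 1121, and was 1661 at 1 h after 42 °C. TRIB1, a pseudokinase that directs protein degradation, rose 3.04-fold from 185 to 560 and was 201 at 6 h, a course like that of CHAC1 and CLK1. PLIN2, a lipid droplet coat protein, rose 2.15-fold from 310 to 666 and reached 1200 at 6 h. Its other probe set above the floor gave a log2 difference of -1.02 from 1 to 3 h, so its direction is unsettled.

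MED30, a subunit of the Mediator complex, rose 2.10-fold from 383 to 804, a level above its control value of 620. Its 1 h array was the lowest of all 9. TNPO2, a nuclear import receptor, was 505 in the control, 522 at 1 h and 261 at 3 h after 44 °C, a difference just at 2-fold.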
